A study of Homo sapiens with 9 samples.

Results

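Chaperone mRNAs encode the proteins that fold other proteins, and 90 of the 42785 genes in the count files belonged to them. They were found by symbol alone, as the HSP70, HSP110, HSP90, small heat shock protein (small HSP), HSP60 and HSP10, J protein, TRiC chaperonin, prefoldin and BAG families. Pseudogenes were left out by name only (P plus digits at the end), so DNAJB3, a transcribed pseudogene in RefSeq, stayed in. The RNA came from SH-SY5Y, a line of human neuroblastoma cells used for all libraries, with no treatment named in the labels. RNA was sequenced after pulldown with beads that carried mouse-anti-DCC (DCC-IP) or rabbit-anti-Nrp1 (Nrp1-IP), antibodies against a pair of receptors for axon guidance cues, and from the whole lysate (Input), in 3 libraries each. The study asked which mRNAs are held with each receptor, and the cDNA was amplified by PCR before sequencing. The study also ran control pulldowns with IgG, and reports that RNA came down with both receptors but not with IgG. No library of IgG was among the samples analysed here. In these counts, then, an mRNA that sticks to beads cannot be told apart from one held with a receptor.

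HSP70 proteins bind stretches of unfolded chain in a cycle driven by ATP, J proteins bring clients to them and start the cycle, and HSP110 and BAG proteins exchange the nucleotide so that the client is let go. HSP90 acts later on clients such as kinases and steroid receptors, prefoldin and the barrel-shaped TRiC chaperonin fold actin and tubulin, and small HSPs hold unfolded chains without ATP. In neurons, chaperones are known for keeping synaptic and cytoskeletal proteins folded far from the cell body.

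Between 8838296 and 11055895 reads were counted on genes per library, and 3 counts, taken as the floor of detection, corresponded to between 0.207 and 0.387 CPM (counts divided by TMM-scaled library sizes). Floors cover counting error only. A single mRNA, MAP1B, took 5462610, 5760797 and 4184163 counts with DCC-IP and between 164906 and 236931 in the others, so DCC-IP libraries had fewer reads left for all other genes. DCC-IP replicate 1 stood apart with counts on 6652 genes, against 8169 to 12240 in the other 8 libraries. The neuroblastoma markers ISL1, GATA3, DBH and CHGB had counts in all 9 libraries and TH was at 0 in all 9, while blood cell markers were at 0 throughout and 6 mesenchymal markers summed to between 1.13 and 7.27 CPM. DCC mRNA was at 0 in all 9 libraries. NRP1 mRNA had 198, 320 and 234 counts in Input and 55, 83 and 36 in Nrp1-IP, a called decrease with a log2 fold change of -2.49 (SE 0.52, edgeR quasi-likelihood test, Benjamini-Hochberg adjusted p = 0.0395) that was lost without any one of 5 of the 6 libraries (adjusted p from 0.0753 to 0.188) or with all 9 libraries in one fit (adjusted p = 0.310), and kept without Input replicate 3 (adjusted p = 0.0325).

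Chaperone mRNAs were a small and uneven part of every library. Of the 90 members, 68 had more than 3 counts in at least 1 library, 20 had more than 3 in all 9, and 18 were at 0 in all 9. In DCC-IP, 55 members were above the floor in at least 1 library and 24 in all 3, in Nrp1-IP 59 and 39, and in Input 68 and 35. The share of detected members that were detected in all 3 libraries of a group was 43.6% with DCC-IP, 66.1% with Nrp1-IP and 51.5% in Input, beside 38.7%, 53.4% and 44.4% of all genes. The fewest members, 28, were above the floor in DCC-IP replicate 1 and the most, 62, in Input replicate 3.

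**Figure D1:**
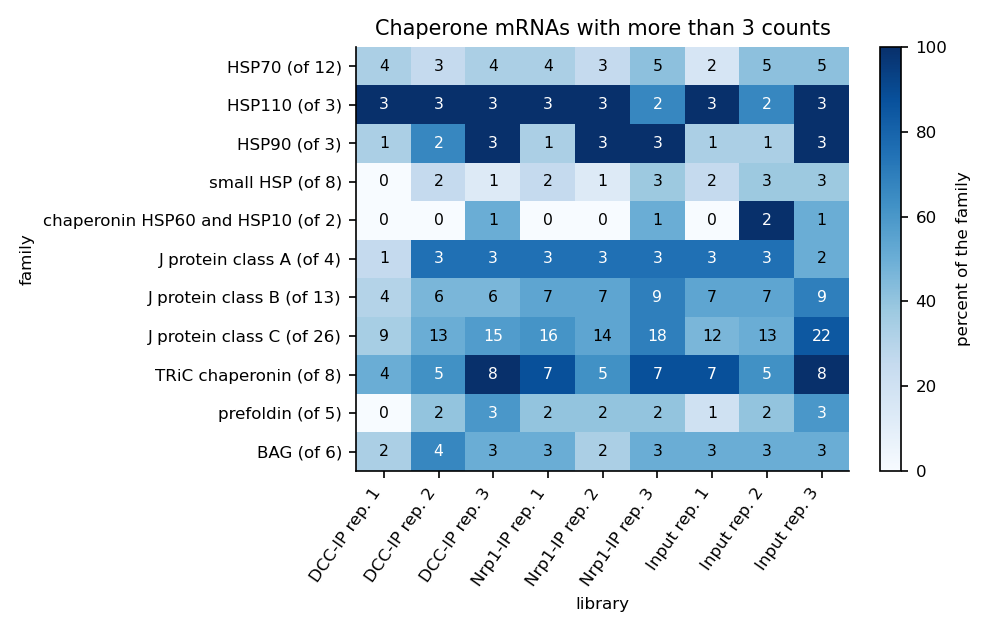
Number of chaperone mRNAs with more than 3 counts in each family (vertical axis, family size in brackets) and library (horizontal axis), with the colour giving the percent of the family. All 8 TRiC subunits were above the floor in DCC-IP replicate 3 and in Input replicate 3, while at most 3 of the 8 small HSPs were above it in any library.

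Of the 18 members at 0 in all 9 libraries, 5 were small HSPs (HSPB2, HSPB3, HSPB6, HSPB7 and HSPB8) and 5 were HSP70 genes (HSPA1A, HSPA1L, HSPA2, HSPA6 and HSPA12B). HSPA1A and its neighbours HSPA1B and HSPA1L, the HSP70 cluster of chromosome 6, held 1 count between them. Those genes, BAG6 and PFDN6 lie between GABBR1 and KIFC1 on that chromosome in the RefSeq list, where 115 of 136 protein-coding genes (84.6%) were at 0 in all 9 libraries, against 35% of the 17491 other protein-coding genes. What part the region has in the low counts of these 5 members was not tested. Reads that aligned to more than 1 place, as those of near-identical genes can, were not counted, and their part was not tested either.

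Most reads on chaperone mRNAs fell on 3 genes, BAG4, DNAJC3 and DNAJC16, which were singled out after their values had been seen. Together they held 68.2%, 79.5% and 64.0% of the members' counts with DCC-IP, against 88.4%, 91.5% and 90.2% with Nrp1-IP and 95.0%, 93.3% and 89.3% in Input. These shares depend on transcript length as well as on the number of molecules, since counts were not divided by length.

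The members' share of all gene counts was lowest in DCC-IP and highest in Input, with no overlap between the groups. It was 0.210% ± 0.0628 with DCC-IP, 0.455% ± 0.0587 with Nrp1-IP and 0.584% ± 0.0764 in Input (SD, n = 3 libraries each). With MAP1B left out of the totals, the shares were 0.395% ± 0.0848, 0.464% ± 0.0592 and 0.596% ± 0.0790 (SD, n = 3 each), and the DCC-IP and Nrp1-IP ranges then overlapped. Without the 3 leading genes the order did not hold. The other 87 members summed to 559 ± 176 CPM with DCC-IP, 396 ± 13.6 CPM with Nrp1-IP and 514 ± 130 CPM in Input (SD, n = 3 each), with overlap of DCC-IP with both other groups. As a share of the counts without MAP1B they were at 0.116% ± 0.0438 with DCC-IP, 0.0457% ± 0.00209 with Nrp1-IP and 0.0439% ± 0.0152 in the lysate (SD over 3 libraries), and DCC-IP then lay above both with no overlap, so their place followed the scaling.

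**Figure D2:**
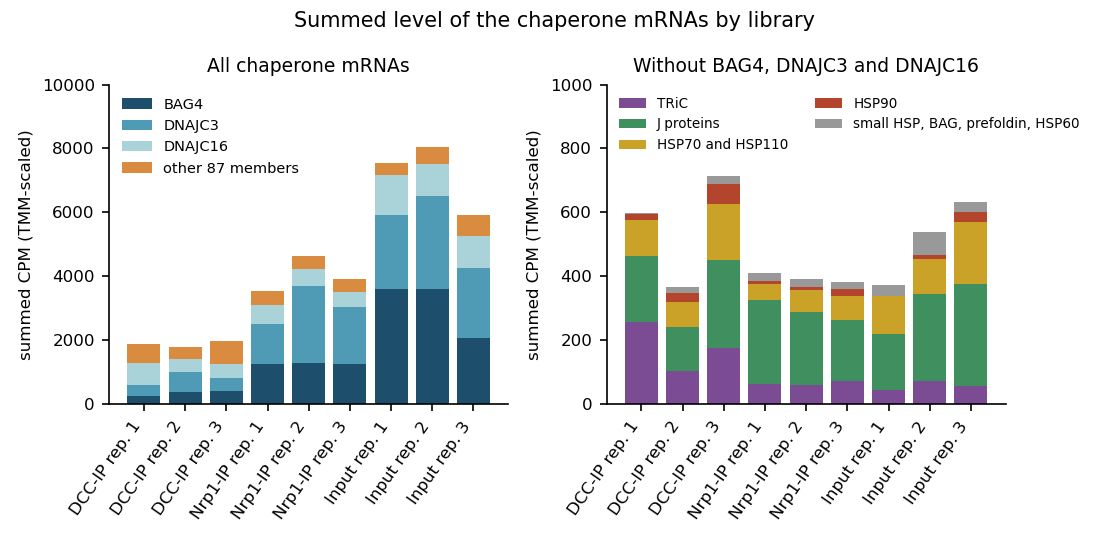
Summed CPM (TMM-scaled, linear axes from 0) of the chaperone mRNAs in each of the 9 libraries, for all members on the left and without BAG4, DNAJC3 and DNAJC16, by family, on the right. On the left the Input bars are tallest and the DCC-IP bars lowest, and on the right TRiC is widest in the DCC-IP bars, at 256, 104 and 176 CPM.

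BAG4, a BAG protein also known as the silencer of death domains, which binds the ATPase part of HSP70 and the tail of the TNF receptor, differed in all 3 comparisons. Its level was 263, 393 and 415 CPM with DCC-IP, 1267, 1274 and 1270 CPM with Nrp1-IP and 3613, 3610 and 2080 CPM in the Input libraries. The groups did not overlap and stood in the order DCC-IP, Nrp1-IP, Input. The mean was 357 ± 82.3 CPM with DCC-IP, 1270 ± 3.45 CPM with Nrp1-IP and 3101 ± 884 CPM in Input (SD, n = 3 each). Of the other BAG genes, BAG1, which couples HSP70 to the proteasome, was the only one tested, and it passed the test in no comparison.

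DNAJC3, an ER-resident J protein that also restrains the kinase PERK, had the same order of means with more spread. The DCC-IP libraries had 336, 612 and 406 CPM, the Nrp1-IP libraries 1233, 2435 and 1782 CPM and the Input libraries 2314, 2895 and 2192 CPM. DCC-IP was below both other groups, while Nrp1-IP and Input overlapped. DNAJC16, a J protein of the ER membrane, instead separated both pulldowns from the lysate. It was at 682, 416 and 445 CPM in DCC-IP, against 616, 528 and 472 CPM in Nrp1-IP and 1239, 1006 and 999 CPM in the Input libraries.

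**Figure D3:**
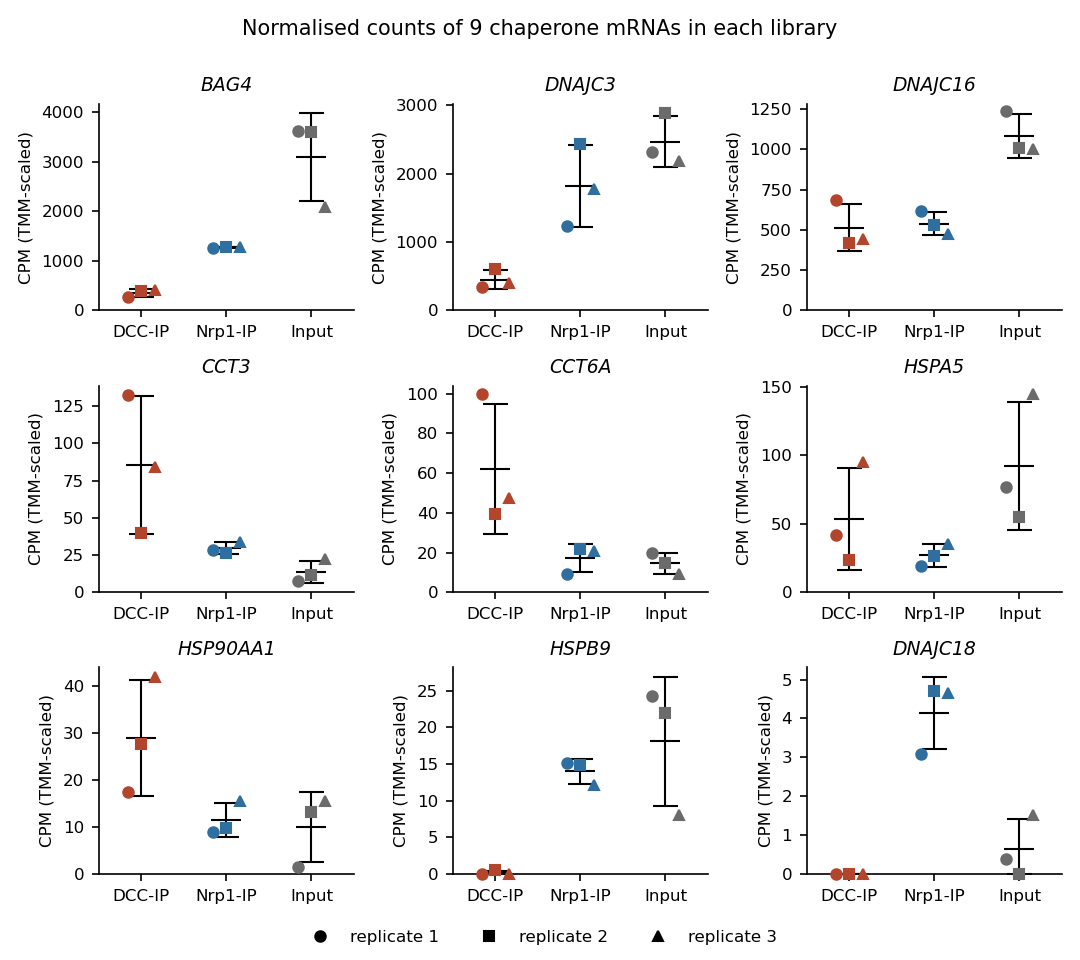
CPM (TMM-scaled, linear axes from 0, one scale per gene) of 9 chaperone mRNAs in each library of DCC-IP, Nrp1-IP and Input, with replicate numbers as symbols and the mean with SD (n = 3, cut at 0) as bars. BAG4 and DNAJC3 are lowest in DCC-IP, CCT3 and CCT6A are highest there, and HSPB9 and DNAJC18 are at or near 0 there.

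The comparison of Nrp1-IP with DCC-IP asked whether the receptors differ in the chaperone mRNAs held with them, and 45 of the 90 members passed the filter on low counts. Of these, 3 were higher in Nrp1-IP (BAG4, DNAJC3 and HSPB9) and 0 lower at a Benjamini-Hochberg adjusted p under 0.05 in edgeR's quasi-likelihood test. Over all 6439 genes tested, 3.65% were called, 2.56% as higher and 1.09% as lower. At an unadjusted p under 0.05, 10 members passed, beside 17.4% of all genes, and DESeq2 called DNAJC18 as higher beside the same 3 and 2 as lower, CCT6A and DNAJB14, where it called 6.49% of all genes as higher and 4.72% as lower (11.2% in all). The p-values measure the spread between these libraries, which the labels do not tie to separate cultures, while the study's methods name independent biological replicates for its experiments in general. In RNA from a mass of cells, fewer cells with an mRNA and less of it per cell cannot be told apart.

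BAG4 was 3.15-fold higher in Nrp1-IP, a log2 fold change of 1.66 (SE 0.34, edgeR quasi-likelihood test, adjusted p = 0.0287). DNAJC3 was 3.53-fold higher, a log2 fold change of 1.82 (SE 0.42, edgeR, adjusted p = 0.0463). HSPB9, a small HSP known from testis, had 0, 6 and 1 counts in DCC-IP, against 162, 161 and 161 in Nrp1-IP and 188, 184 and 64 in the Input libraries. Its fitted log2 fold change was 5.89 (SE 1.37, edgeR, adjusted p = 0.0495), a value that rests on the 6 counts of DCC-IP replicate 2 and was 8.10 without that library. All 3 calls were lost without any one of the Nrp1-IP libraries, with adjusted p between 0.0636 and 0.265, that of DNAJC3 also without DCC-IP replicate 1 (adjusted p = 0.0547) and that of HSPB9 also without DCC-IP replicate 3 (adjusted p = 0.0702). Over all genes, 165 were called higher and 70 lower on all libraries. Without Nrp1-IP replicate 1, 2 or 3 these counts were 69 and 5, 67 and 10, and 98 and 16. Without DCC-IP replicate 1 or 3 they were 225 and 29, and 290 and 56.

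DNAJC18, a J protein of the ER membrane, had 33, 51 and 62 counts in Nrp1-IP, 0 in every DCC-IP library and 3, 0 and 12 in Input. Against the floor of 3 counts per library, its level in Nrp1-IP was at least 15.8-fold higher than in DCC-IP, and the adjusted p was 0.0566 in edgeR's quasi-likelihood test, above the threshold. It passed the threshold without DCC-IP replicate 1 (adjusted p = 0.0443) and, on all libraries, in 4 of 8 alternatives (adjusted p from 0.000247 to 0.0885 over the 8).

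In the opposite direction lay the TRiC chaperonin, the ring of 8 related subunits that folds actin and tubulin. All 6 subunits tested had fitted values below 0 under each scaling tried. Their median log2 fold change was -1.15 beside -0.27 over all genes tested, and none passed the test. CCT6A, the zeta subunit, had 99.6, 39.5 and 47.3 CPM in DCC-IP, beside 9.26, 21.9 and 21.0 CPM in Nrp1-IP (log2 fold change -1.94, SE 0.60, edgeR, adjusted p = 0.126, and -1.30 without DCC-IP replicate 1). CCT3, the gamma subunit, had 133, 39.6 and 84.3 CPM in DCC-IP, beside 28.3, 26.3 and 34.0 CPM in Nrp1-IP (log2 fold change -1.63, SE 0.52, edgeR, adjusted p = 0.137). The libraries did not overlap for either subunit. Reads on CCT6A share sequence with the pseudogenes CCT6P1 and CCT6P3, which had 1019 and 893 counts over the 9 libraries beside 3024 on CCT6A, so its counts are uncertain. CCT3 overlaps TSACC, with 769 counts beside 4263.

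The HSP90 and HSP110 genes tested also had fitted values below 0, except that HSPA4 was above 0 when libraries were scaled by relative log expression (RLE) size factors, by library size only or after MAP1B, a gene with many reads, was removed. The median log2 fold change was -1.69 over 2 and -1.78 over 3 genes, and none passed the test. HSP90AA1, the stress-inducible cytosolic HSP90, was at 17.4, 27.6 and 41.9 CPM in DCC-IP, beside 8.98, 9.67 and 15.5 CPM in Nrp1-IP, which did not overlap (log2 fold change -1.51, SE 0.66, edgeR, adjusted p = 0.274). HSPA4, an HSP110 nucleotide exchange factor, was at 16.5, 22.2 and 14.5 CPM in DCC-IP, beside 21.0, 19.5 and 15.4 CPM in Nrp1-IP, within the spread of either group (log2 fold change -0.11, SE 0.62, edgeR, adjusted p = 0.965).

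The libraries of the groups did not overlap for 14 of the 45 members tested, 8 higher and 6 lower in Nrp1-IP, where 26.5% of all genes tested did not overlap, 15.6% as higher and 10.9% as lower. The median log2 fold change of the 45 was -0.25, beside -0.27 over all genes. Without DCC-IP replicate 3 the members' median was 0.66, beside 0.32 over all genes, so its sign rested on that library.

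**Figure D4:**
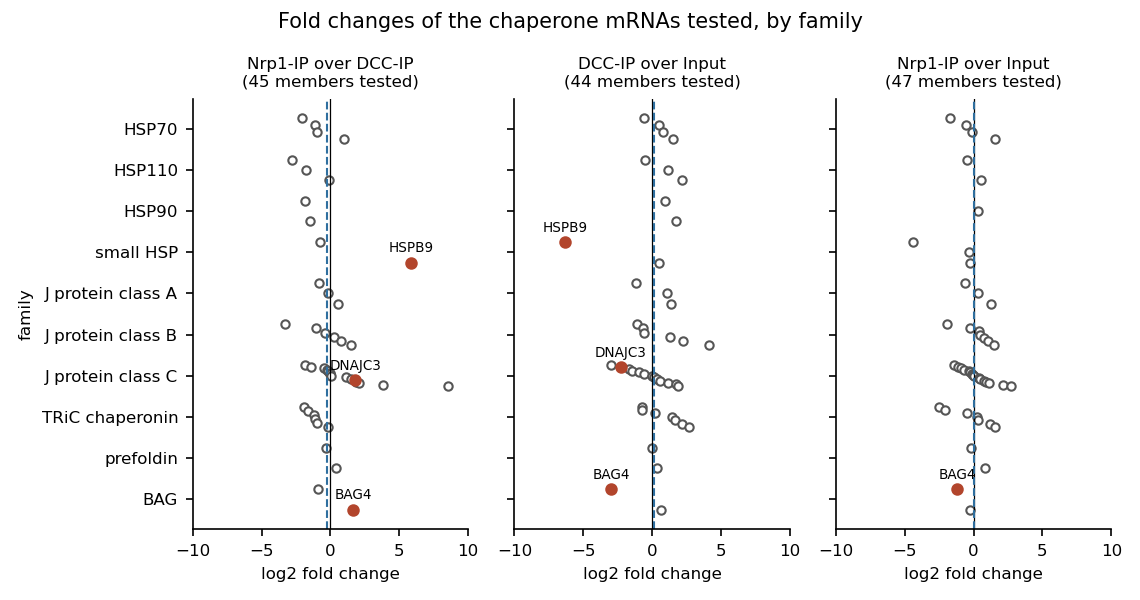
Log2 fold changes of the chaperone mRNAs tested in the 3 comparisons, one circle per gene, by family, with filled circles for an adjusted p under 0.05 in edgeR's quasi-likelihood test, a solid line at 0 and a dashed line at the median of all genes tested. BAG4 is filled in all 3 panels and DNAJC3 and HSPB9 in those with DCC-IP, and the 6 TRiC subunits lie left of 0 in the first panel.

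Both comparisons with Input use the same 3 Input libraries and, like the comparison of the receptors, share their pulldown libraries with another comparison, so their values stand side by side without support for each other. Between DCC-IP and Input, 44 members were tested, of which 0 were higher and 3 lower in DCC-IP. Of the 6223 genes tested, 4.98% were called, 1.46% as higher and 3.52% as lower. BAG4 was 7.71-fold lower (log2 fold change -2.95, SE 0.42, edgeR quasi-likelihood test, adjusted p = 0.00884) and DNAJC3 was 4.89-fold lower (log2 fold change -2.29, SE 0.39, edgeR, adjusted p = 0.0157). HSPB9 had a log2 fold change of -6.31 (SE 1.49, edgeR, adjusted p = 0.0484), which was -8.12 without DCC-IP replicate 2, and its call was lost without any one of the 6 libraries (adjusted p from 0.0618 to 0.195), with library size only (adjusted p = 0.0633) and with MAP1B removed (adjusted p = 0.0635). The call of BAG4 was lost without DCC-IP replicate 1, DCC-IP replicate 2 or Input replicate 1 (adjusted p = 0.0766, 0.0975 and 0.0605), and that of DNAJC3 without any one library but Input replicate 3 (adjusted p from 0.0597 to 0.112, and 0.0115 without Input replicate 3). Over all genes, 91 were called higher and 219 lower on all libraries. Without DCC-IP replicate 1, 2 or 3 these counts were 0 and 0, 1 and 0, and 139 and 67. Without Input replicate 1, 2 or 3 they were 1 and 30, 14 and 82, and 36 and 214.

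At an unadjusted p under 0.05, 8 members differed between DCC-IP and Input, beside 22% of all genes. Among them were CCT3, with 7.61, 11.8 and 22.1 CPM in Input and 6.47-fold more in DCC-IP (log2 fold change 2.69, SE 0.70, edgeR, adjusted p = 0.0623), and CCT6A, with 19.7, 14.6 and 9.17 CPM in Input and 4.47-fold more in DCC-IP (log2 fold change 2.16, SE 0.64, edgeR, adjusted p = 0.0898). Without DCC-IP replicate 2 the log2 fold changes were 3.41 for CCT3 and 2.81 for CCT6A. Libraries with the same replicate number deviated together in these groups, and with the replicate number as a block both subunits passed the test as higher, with adjusted p = 0.0305 for CCT3 and 0.0454 for CCT6A. In the same blocked edgeR fit DNAJC16 passed as lower with a log2 fold change of -0.98 (adjusted p = 0.0234, against 0.107 without the block), which made 2 members higher and 4 lower, beside 3.82% and 7.67% of all genes (11.5% in either direction). DESeq2 called 3 members as higher (CCT3, CCT6A and DNAJB14) and 4 as lower (BAG4, DNAJC3, DNAJC14 and HSPB9), of 32 that it gave an adjusted p, beside 10.2% and 10.5% of all genes (20.7% in all). DNAJB14, a J protein of the ER membrane, had 243, 34 and 1549 counts in DCC-IP and 7, 22 and 44 in Input, so that its excess rested on DCC-IP replicates 1 and 3 (adjusted p = 0.114 in edgeR's quasi-likelihood test).

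Of the 7 TRiC subunits tested against Input, 5 had fitted values above 0 and 2 below under each scaling tried, with a median of 1.42 beside 0.16 over all genes. Summed over its 8 subunits, TRiC was at 256, 104 and 176 CPM in DCC-IP, against 62.7, 60.0 and 72.6 CPM in Nrp1-IP and 43.2, 72.5 and 56.4 CPM in the Input libraries. DCC-IP was above both other groups, which overlapped each other, and CCT3 and CCT6A made up most of the sum in every DCC-IP library. CCT2 and CCT5, by contrast, were at 0 in DCC-IP replicates 1 and 2, with 60 and 53 counts in DCC-IP replicate 3, so the subunits of one ring differed in which libraries held them.

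HSPB1, the small HSP that caps actin filaments, was at 0 in all 3 DCC-IP libraries, at 0, 0 and 22 counts in Nrp1-IP and at 3, 276 and 72 counts in the Input libraries. Against the floor of 3 counts per library it was at least 53.8-fold lower in DCC-IP than in Input. Most of this rested on Input replicate 2, and HSPB1 did not pass the filter on low counts in the fit of DCC-IP and Input. DNAJB1, the stress-inducible J protein, was likewise at 0 in DCC-IP and at 0, 53 and 24 counts in Input, at least 11.9-fold lower. Input replicate 1 was also at 0 for DNAJB1, so the groups touched. For 11 of the 44 members tested the libraries did not overlap, 5 above Input and 6 below, where 33.3% of all genes tested did not overlap, 15.2% above and 18.1% below.

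The median log2 fold change of the 44 members in DCC-IP over Input was 0.41, beside 0.16 over all genes. Leaving out 1 library moved it between -0.17 (without Input replicate 1) and 0.65 (without Input replicate 3), so its sign rested on Input replicate 1, and also on DCC-IP replicate 3, without which it was -0.08. The median of all genes itself moved with the scaling, from 0.16 with TMM to 0.00 with RLE size factors and 0.48 with library size only, and the members' median was 0.30 and 0.66 with these.

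Between Nrp1-IP and Input, 47 members were tested, of which 0 were higher and 1 lower. Of the 6501 genes tested, 4.97% were called, 1.94% as higher and 3.03% as lower. The member called was BAG4, 2.29-fold lower in Nrp1-IP (log2 fold change -1.19, SE 0.26, edgeR quasi-likelihood test, adjusted p = 0.0443). Its call was lost without any one of the Nrp1-IP libraries or of Input replicates 1 and 2 (adjusted p from 0.105 to 0.248) and was kept without Input replicate 3 (adjusted p = 0.00382). It was also lost with library size only (log2 fold change -0.80, adjusted p = 0.0689) and with all 9 libraries in one fit (adjusted p = 0.0759). Over all genes, 126 were called higher and 197 lower on all libraries. Without Nrp1-IP replicate 1, 2 or 3 these counts were 0 and 0, 0 and 7, and 0 and 7. Without Input replicate 1, 2 or 3 they were 3 and 74, 36 and 126, and 111 and 330. At an unadjusted p under 0.05, 5 members passed, beside 21.6% of all genes, and DESeq2 called 4 as lower, BAG4, DNAJC16, HSPA5 and HSPB1, and 0 as higher, beside 10.4% and 6.66% of all genes (17.1% in all).

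DNAJC16 was 1.91-fold lower in Nrp1-IP than in Input, with no overlap (log2 fold change -0.93, SE 0.27, edgeR, adjusted p = 0.0883), and passed without Input replicate 3 (adjusted p = 0.0280) and in 4 of 9 alternatives on all libraries (adjusted p from 0.00527 to 0.173 over the 9). HSPA5, the HSP70 of the ER also known as BiP, was at 19.2, 26.3 and 35.6 CPM in Nrp1-IP, 42.2, 23.5 and 95.3 CPM in DCC-IP and 77.1, 55.1 and 145 CPM in Input. Every Nrp1-IP library was below every Input library, while DCC-IP overlapped both (log2 fold change of Nrp1-IP over Input -1.74, SE 0.51, edgeR, adjusted p = 0.0955, with 5 of 9 alternatives passing). DNAJB9, an ER J protein that hands BiP to the stress sensor IRE1, lay the other way, at 14.4, 12.5 and 7.21 CPM in Nrp1-IP and 2.97, 7.75 and 2.64 CPM in the Input libraries (log2 fold change 1.49, SE 0.59, edgeR, adjusted p = 0.196). Its highest value, 53.1 CPM, was in DCC-IP replicate 1, with 7.76 and 6.98 CPM in the other DCC-IP libraries. HSPB1 had a fitted log2 fold change of -4.43 (SE 1.85, edgeR, adjusted p = 0.215), which was -9.87 without Nrp1-IP replicate 3 and -3.08 without Input replicate 2.

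The libraries did not overlap for 9 of the 47 members, 3 above Input (CCT3, CCT8 and DNAJC18) and 6 below (BAG4, CCT7, DNAJC14, DNAJC16, HSPA4 and HSPA5), where 31.5% of all genes tested did not overlap, 17.7% above and 13.8% below. The median of the 47 was -0.05, beside 0.06 over all genes, and it was -0.24 and 0.29 with RLE size factors and library size only, beside -0.13 and 0.44 over all genes. The sign of this median followed the scaling.

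A list of 9 ER-resident members held the called DNAJC3 as well as HSPA5 and DNAJB9. It did not hold DNAJC16, DNAJC18 and DNAJB14, described above as J proteins of the ER membrane. In each comparison 4 of the 9 were tested. The medians of these tested genes were -0.50 in Nrp1-IP over DCC-IP, 0.66 in DCC-IP over Input and 0.57 in Nrp1-IP over Input, each over values of both signs. HSP90B1, the ER HSP90, had 0, 2 and 79 counts in DCC-IP, against 0, 5 and 19 in Nrp1-IP and 1, 0 and 22 in the Input libraries, and passed the filter in no comparison. In mitochondria, HSPA9 (mortalin) was at 1.92, 14.4 and 9.89 CPM in DCC-IP, against 1.22, 5.99 and 8.33 CPM in Nrp1-IP and 0.129, 7.39 and 10.3 CPM in the Input libraries, and the groups overlapped. Replicate 1 was the lowest library of HSPA9 in each group. HSPD1, the mitochondrial HSP60, had 0, 0 and 35 counts in DCC-IP, against 0, 0 and 5 in Nrp1-IP and 0, 40 and 7 in the Input libraries.

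Among the other families, DNAJA2, a cytosolic J protein, was at 12.6, 9.77 and 30.8 CPM in DCC-IP, against 25.3, 33.8 and 25.7 CPM in Nrp1-IP and 18.8, 26.0 and 92.2 CPM in the Input libraries, with Input replicate 3 highest and all groups overlapping. DNAJB6, known for holding polyglutamine proteins in solution, was at 26.9, 64.1 and 17.2 CPM in DCC-IP, against 102, 84.5 and 34.5 CPM in Nrp1-IP and 52.9, 115 and 20.5 CPM in the Input libraries. Replicate 3 was its lowest library in each group, and neither gene passed the test in any comparison. PFDN2, a prefoldin subunit, had 0, 59 and 24 counts in DCC-IP, against 33, 22 and 14 in Nrp1-IP and 9, 27 and 24 in the Input libraries. DNAJC5, the cysteine string protein of synaptic vesicles, had at most 8 counts in any library, and DNAJC6, the auxilin that uncoats clathrin vesicles, also had at most 8. DNAJC7 overlaps CNP, which had 527420 counts beside 624 on DNAJC7, and DNAJC9 has an antisense partner, DNAJC9-AS1, with 19374 counts beside 415. The strand setting of the counting is not given in the sources used here, so these J protein values are uncertain.

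Heat shock genes are switched on through heat shock elements, arrays of inverted GAA units that heat shock factors bind, and ER chaperone genes through the ER stress element, which ATF6 and NF-Y bind. Promoters of RefSeq (GRCh38.p14, 250 bases before to 50 after a gene's start) were found for 79 of the 90 members. The element GAANNTTCNNGAA, on either strand, stood in 7 of these 79 promoters (8.86%) and in 166 of those of all 27305 genes (0.608%). The ER stress element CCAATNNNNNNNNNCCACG stood in 2 of 79 (2.53%) and in 25 of 27305 (0.0916%). A match is a description of these letters and not a site of binding. The windows below show 1 element for each of 5 members whose levels are given here, and further elements, those of HSPA6 and HSPD1 among them, are not printed. Each is on the strand of its gene, with the element in capitals and the reverse complement where the element lies on the other strand.
HSP90AA1, chr14:102087115-102087137, minus strand: ggttcTTCCGGAAGGTTCgggag
HSPA8, chr11:123062174-123062196, minus strand: gccccTTCTGGAAGGTTCtaaga
DNAJB6, chr7:157336868-157336890, plus strand: gccgaGAACCTTCGCGAAggtgg
HSPA5, chr9:125241386-125241414, minus strand: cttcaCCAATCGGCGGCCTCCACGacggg
HSP90B1, chr12:103930211-103930239, plus strand: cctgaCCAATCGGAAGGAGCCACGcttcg

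The 7 members with the heat shock element were DNAJA1, DNAJB6, HSP90AA1, HSP90AB1, HSPA6, HSPA8 and HSPD1. HSPA6 and HSPD1 were tested in no comparison, and HSP90AB1 was not tested in Nrp1-IP over Input. Where these members were tested, none passed. HSPA6 was at 0 in all 9 libraries. HSPA8, the constitutive HSP70, was at 21.8, 3.28 and 24.5 CPM in DCC-IP, against 2.06, 7.46 and 3.15 CPM in Nrp1-IP and 4.13, 4.89 and 9.93 CPM in the Input libraries. DCC-IP replicates 1 and 3 were above all other libraries and DCC-IP replicate 2 was among them (log2 fold change -2.04 for Nrp1-IP over DCC-IP, SE 0.96, edgeR, adjusted p = 0.310). HSPA8 hosts snoRNA genes in its introns, of which SNORD14E had 121 counts beside 886 on HSPA8.

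Genes that work with the chaperones but are no members were given by 7 lists. Of the nascent chain chaperones, 5 of 5 were tested between the receptors. In Nrp1-IP 1 was higher and 1 lower, beside 2.56% and 1.09% of all genes. Both of these mRNAs encode subunits of the signal recognition particle that bind each other. SRP9 had 300, 756 and 503 counts in DCC-IP, beside 3024, 2494 and 1995 in Nrp1-IP (log2 fold change 2.16, SE 0.49, edgeR, adjusted p = 0.0444). SRP14 had 1192, 275 and 337 counts in DCC-IP, beside 61, 53 and 52 in Nrp1-IP (log2 fold change -3.70, SE 0.82, edgeR, adjusted p = 0.0424). Both calls were lost without DCC-IP replicate 1 (adjusted p = 0.0571 for SRP9 and 0.0623 for SRP14, with a log2 fold change of -2.21 for SRP14) and without any one of the Nrp1-IP libraries (adjusted p from 0.0813 to 0.276). On all libraries the call of SRP14 was also lost with RLE size factors (adjusted p = 0.0534) and with MAP1B removed (adjusted p = 0.0516). Against Input, SRP14 was higher in DCC-IP with the replicate number as a block, with a log2 fold change of 2.41 (edgeR, adjusted p = 0.0376, against 0.122 without the block).

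Among ER folding and lectin chaperones, 1 of 7 tested was lower in DCC-IP than in Input, beside 3.52% of all genes. In Nrp1-IP 2 of 8 were lower than in Input, beside 3.03% of all genes. ERO1L, which reoxidises protein disulphide isomerase, was lower in both, with a log2 fold change of -1.95 in DCC-IP (SE 0.35, edgeR, adjusted p = 0.0197) and -1.33 in Nrp1-IP (SE 0.24, edgeR, adjusted p = 0.0289). Without any one library but Input replicate 3 both of its calls were lost, with adjusted p from 0.0608 to 0.160 for DCC-IP and from 0.0516 to 0.181 for Nrp1-IP. That in DCC-IP was also lost with library size only (adjusted p = 0.0550) and with MAP1B removed (adjusted p = 0.0576). With the replicate number as a block, 3 of the 7 were lower in DCC-IP than in Input, ERO1L, CALR (log2 fold change -2.48, adjusted p = 0.00228, against 0.0949 without the block) and PDIA4, a disulphide isomerase (log2 fold change -1.91, adjusted p = 0.00786, against 0.0918), beside 7.67% of all genes. CALR, the lectin chaperone calreticulin, was lower in Nrp1-IP, with a log2 fold change of -4.46 (SE 0.91, edgeR, adjusted p = 0.0352), with -3.22 without Input replicate 3, the library with most of its counts, and with -5.06 without Nrp1-IP replicate 3. Its call was lost without Input replicate 1 (adjusted p = 0.0585) and without any one of the Nrp1-IP libraries (adjusted p from 0.103 to 0.199).

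Among the partners and clients of TRiC and prefoldin, 1 of 4 tested was lower in Nrp1-IP than in Input, beside 3.03% of all genes. This was ACTB, the actin that TRiC folds, with 1022, 1274 and 4027 counts in Nrp1-IP and 23675, 25286 and 285358 in the Input libraries (log2 fold change -6.35, SE 1.25, edgeR, adjusted p = 0.0328). Without Input replicate 3 the value was -4.20 (adjusted p = 0.00506) and without Nrp1-IP replicate 3 it was -7.04, and the call was lost without any one of the Nrp1-IP libraries (adjusted p from 0.103 to 0.190). In DCC-IP over Input, ACTB was lower with the replicate block, with a log2 fold change of -3.03 (edgeR, adjusted p = 0.00254, against 0.103 without the block). The co-chaperones of HSP90 (13 genes) and of HSP70 (8), the mitochondrial partners (8) and the heat shock factors and regulators (7) held no call in any comparison without the block. With it, SUGT1, an HSP90 co-chaperone, and CLPX, a mitochondrial partner that unfolds proteins for a protease, were lower in DCC-IP than in Input (log2 fold changes -1.04 and -1.84, edgeR, adjusted p = 0.0234 and 0.0260).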

How the data were processed

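RNA of 3 groups of SH-SY5Y libraries (DCC-IP, Nrp1-IP and Input, 3 each, grouped by the antibody in the labels) was analysed. The submitters' processing notes name HISAT2 2.1.0, HTSeq 0.11.0 and build hg19, and the authors deposited raw counts per gene. Neither annotation nor strand setting is given in the sources used here. The 5 summary lines of each file were left out of all totals. Among them, 48.7% to 55.8% of a library's reads fell on no feature and 2.83% to 3.83% aligned to more than 1 place, a class that takes reads from near-identical chaperone genes.

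Each pair of groups was fitted in edgeR 4.0.16 (R 4.3.3) on its 6 libraries with filterByExpr (minimum count 10), TMM, glmQLFit and glmQLFTest, with Benjamini-Hochberg adjustment over all genes tested and calls at an adjusted p under 0.05. The SE is the log2 fold change divided by the square root of F. The study's methods name edgeR and this threshold. CPM uses TMM over all 9 libraries. TCP1, spelled out in the rule, was kept although it ends like a pseudogene. The members and lists were chosen with earlier results of these data known. Genes named are those called, the 5 members with the smallest p in each comparison, the member with most counts in each family, called partners and both receptors, and others were named after their values were seen.

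Libraries with the same replicate number were correlated in their deviations from group means. Over 7628 genes these correlations were 0.117, 0.187 and 0.421 between DCC-IP and Input. Blocked values stand beside that comparison where they change a call. Input replicate 1 correlated more with DCC-IP replicate 2 (0.136) than with its own number, so the pairing is uncertain and blocked calls are an alternative to the main fit. For the same replicate number the correlations were 0.0989, 0.113 and 0.361 between Nrp1-IP and DCC-IP and 0.215, -0.0043 and 0.364 between Nrp1-IP and Input. The fits were tested on simulated data. RefSeq (GRCh38.p14) gave names for 89 of the 90 members, overlaps and promoters. DESeq2 1.42.0, the edgeR likelihood ratio test, RLE size factors, library size only, other filters, all 9 libraries in one fit, the replicate block, MAP1B removed and each library left out were the alternatives. Python 3.11.15 with matplotlib 3.10.9 drew the figures.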

Additional observations from a re-analysis of the deposited data

How the results depend on the processing

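The counts of members called higher in Nrp1-IP over DCC-IP and lower in DCC-IP over Input were 2 to 4, against 3 as reported, under every alternative that used all libraries, each time with BAG4 and DNAJC3. Over all genes the first ran from 191 to 408, against 165, and the second from 47 to 524, against 219. HSPB9 was not called in the second with library size only and with MAP1B removed, and not tested in either with at least 10 counts in every library. Other counts moved. Members called lower in Nrp1-IP over DCC-IP rose from 0 to 2 with DESeq2 and to 1 with no filter, where all genes rose from 70 to 297 and 176. Members called higher in DCC-IP over Input rose from 0 to 3 with DESeq2 and with at least 10 counts in every library, to 2 with the likelihood ratio test, with no filter and with the replicate block, and to 1 with all 9 libraries in one fit. Over all genes the calls rose from 91 to 508 with DESeq2 and to 468 of 2634 tested with at least 10 counts. They were 294, 233, 238 and 285 in the other settings, in the order named. Members called lower in Nrp1-IP over Input, 1 as reported, were 2 with RLE size factors, the likelihood ratio test and the replicate block, 4 with DESeq2 and no filter, 3 with at least 10 counts in every library, and 0 with library size only and with all 9 libraries in one fit. Over all genes the 197 as reported became, in the order named, 265, 369, 317, 589, 644, 356 of 3460 tested, 167 and 103. The causes were not tested. Leaving out 1 library gave 0 to 3 members higher in Nrp1-IP over DCC-IP, 0 to 2 lower in DCC-IP over Input and 0 to 2 lower in Nrp1-IP over Input. These fits have fewer samples, and several called few genes at all, as given above for each comparison. A call lost in them, of a member or of a partner, is therefore not particular to that gene. The mean share of gene counts on chaperone mRNAs moved from 0.210% to 0.395% in DCC-IP without MAP1B in the total, and from 0.584% to 0.716% in Input with TMM scaling. Between Nrp1-IP and DCC-IP the numbers were not taken as paired, although every library correlated best with its own number. The replicate block left 3 members higher and 0 lower there. Calls over all genes went from 165 higher and 70 lower to 266 and 103, and CCT7 and CCT8 were then above 0. Among the partners, ACTB then passed as lower (log2 fold change -2.54, edgeR, adjusted p = 0.00154, against 0.0685 without the block). Between Nrp1-IP and Input the block added HSPA5 (adjusted p = 0.0423) to BAG4, with 239 higher and 317 lower in place of 126 and 197 over all genes. Among the partners it added PDIA4 as lower (log2 fold change -2.13, edgeR, adjusted p = 0.0265, against 0.0566). The median of the members changed sign with the block, to 0.03 in Nrp1-IP over DCC-IP, -0.15 in DCC-IP over Input and 0.14 in Nrp1-IP over Input. The median over all genes moved the same way, to 0.13, -0.19 and 0.20, from -0.27, 0.16 and 0.06. With 3 libraries a group, the members under the filter on low counts, most small HSPs among them, gave no test.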
